A study of Mus musculus with 8 samples.

Results

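The genes described here are 10 regulators of the G1 phase of the cell cycle: the D-type cyclins Ccnd1, Ccnd2 and Ccnd3, their kinases Cdk4 and Cdk6, the CDK inhibitors Cdkn1a (p21), Cdkn1b (p27) and Cdkn2c (p18), the tumour suppressor Trp53 (p53) and the transcription factor Myc. They were chosen by name, several because they have been described as targets of the repressor BCL6. A gene was read from a probe set that the array annotation assigns to its symbol and to no other gene, and where a gene had several such sets, the brightest on average was taken. By this rule 8 of the 10 genes were measured, among 19937 genes in the whole table. The only probe set of Cdkn1a is also assigned to another gene, and Trp53 matched no probe set in the annotation used, so these genes were not analysed here.

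RNA came from FoxP3+ regulatory T cells (Tregs), a CD4 lineage that holds other lymphocytes in check. They were sorted from mice labelled wild type (WT) or Bcl6 knock-out (KO, Bcl6-/-). Cells of both genotypes were treated alike, for 16 h with antibodies to CD3 and CD28, after which 100 ng of RNA from each sample went on an Affymetrix whole-transcript array. Each genotype has arrays 1A, 1B, 2A and 2B, where the number is called a preparation here. The labels do not give the age of the mice, the Bcl6 allele, or whether numbers and letters mark separate animals, so p-values reflect only how far these 8 samples scatter, and that scatter may be technical. In such bulk samples, more cells of a kind and more RNA per cell cannot be told apart.

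In G1, D-type cyclins bind CDK4 or CDK6, and the active kinases phosphorylate the retinoblastoma protein. That phosphorylation releases E2F factors, which switch on cyclin E, cyclin A and the enzymes that make DNA precursors. The INK4 inhibitor p18 binds CDK4 and CDK6 directly, whereas p27 and p21 act on cyclin and CDK complexes. Myc, paired with Max, binds the E-box CACGTG and drives genes of cell growth, and p53 induces p21 after damage. Stimulation through CD3 and CD28 moves resting T cells from quiescence into this program, and BCL6 is known in germinal centre B cells for repressing genes of this circuit, those of p53, p21 and cyclin D2 among them.

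Of the measured members with a promoter in the table used, Cdk6, Cdkn2c and Cdk4 had the 3 largest KO minus WT differences, and their promoters are shown for that reason. Each window runs from 250 bases before to 50 bases after a RefSeq transcript start, 5′ to 3′ on the gene's strand, from RefSeq on GRCm38.p6, with the Myc and Max E-box CACGTG in capitals. The Cdk6 window is chr5:3343643-3343942 on the plus strand, and Cdk4 has chr10:127063285-127063584, also on the plus strand. The Cdk6 gene begins upstream of its window, at chr5:3341004, so that window lies at an inner start. The outermost Cdk6 start had no window. Cdkn2c has starts on the minus strand at chr4:109665323-109665622 and chr4:109666707-109667006, in this order below.
Cdk6: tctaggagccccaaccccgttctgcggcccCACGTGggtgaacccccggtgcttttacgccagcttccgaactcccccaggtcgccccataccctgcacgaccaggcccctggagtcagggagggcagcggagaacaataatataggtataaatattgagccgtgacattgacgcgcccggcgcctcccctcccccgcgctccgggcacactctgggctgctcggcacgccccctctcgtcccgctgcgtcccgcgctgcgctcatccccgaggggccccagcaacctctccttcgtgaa
Cdk4: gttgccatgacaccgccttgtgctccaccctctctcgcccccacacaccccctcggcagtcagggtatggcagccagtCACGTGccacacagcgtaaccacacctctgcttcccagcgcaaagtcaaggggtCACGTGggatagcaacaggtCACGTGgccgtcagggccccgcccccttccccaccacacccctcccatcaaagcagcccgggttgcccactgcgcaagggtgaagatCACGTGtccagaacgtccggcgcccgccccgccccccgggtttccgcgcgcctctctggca
Cdkn2c inner start: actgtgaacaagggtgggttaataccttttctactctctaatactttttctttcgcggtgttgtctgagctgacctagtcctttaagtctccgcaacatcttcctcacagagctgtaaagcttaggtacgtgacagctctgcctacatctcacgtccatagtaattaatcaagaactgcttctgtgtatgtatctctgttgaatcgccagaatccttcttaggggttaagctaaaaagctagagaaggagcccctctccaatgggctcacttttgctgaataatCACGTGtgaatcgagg
Cdkn2c outer start: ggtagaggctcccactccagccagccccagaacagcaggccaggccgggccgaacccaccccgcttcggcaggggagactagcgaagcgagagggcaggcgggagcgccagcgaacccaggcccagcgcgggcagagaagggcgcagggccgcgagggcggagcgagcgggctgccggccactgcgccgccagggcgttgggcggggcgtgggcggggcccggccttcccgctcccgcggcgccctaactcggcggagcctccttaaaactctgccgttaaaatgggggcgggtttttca

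The Cdk4 window held 4 E-boxes, whose first bases lie at -172, -118, -98 and -11 from the start. Of 32851 promoter windows of 27025 genes, 7.15% held at least 1 E-box and 8 windows held 4 or more. The inner Cdk6 start had 1 E-box at -220 and the inner Cdkn2c start 1 at 35, while the outer Cdkn2c start had 0. Among the other members, the Trp53 window had 1 E-box, and the windows of Ccnd3, Cdkn1a and Cdkn1b had 0. Ccnd1, Ccnd2 and Myc are named only. A BCL6-type motif, TTCCTNGAA, was searched on both strands and matched 0 of the 10 member windows, against 1.59% of all windows. The looser form TTCNNNGAA, which contains every match of the first, also matched 0 windows, against 8.30%. The E2F-type motifs TTTCCCGC and TTTGGCGC, on both strands, matched 0 member windows, against 1.07% and 0.51% of all windows. The GC box GGGCGG matched 6 of the 10, against 35.7% of all. Such matches describe the letters in these windows and are not evidence of binding.

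The members fell into 3 patterns. Cdk6 and Cdkn2c were above WT in every KO array, in both preparations. Cdk4, Ccnd2 and Myc were above all WT arrays in KO 1 and inside or at the edge of the WT range in KO 2. For Ccnd3 and Cdkn1b the KO and WT arrays overlapped without either KO preparation standing apart, and Ccnd1 was below all WT arrays in KO 1 and inside their range in KO 2. The plot of log2 expression by array shows each value. Levels are log2 summaries of a probe set and are not compared between genes.

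**Figure D1:**
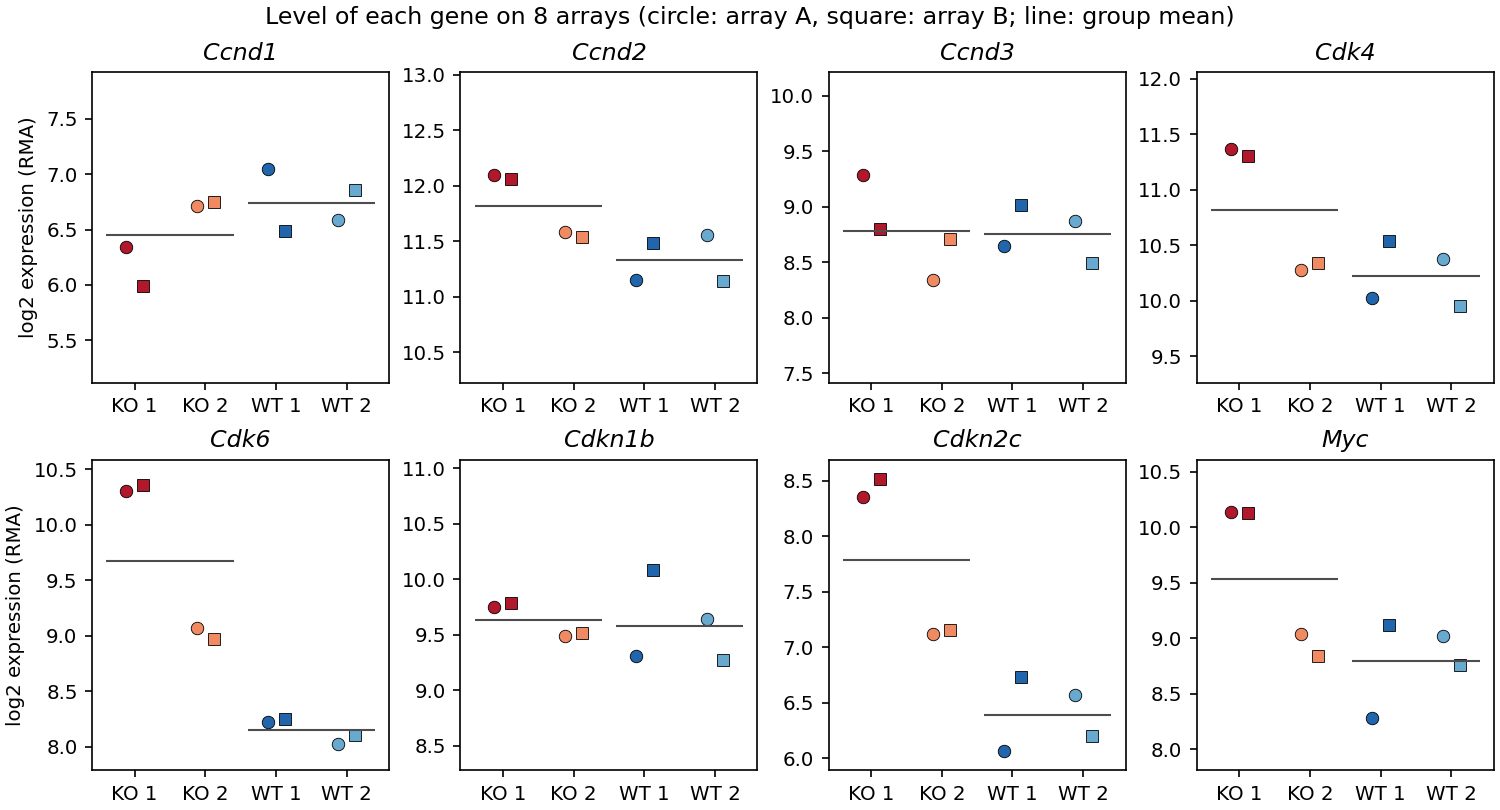
Log2 expression (y axis, each panel spanning the same number of log2 units) of the 8 measured members in the KO and WT arrays of each preparation (x axis), with circles for array A, squares for array B and a line at the group mean. Cdk6 and Cdkn2c lie higher in all 4 KO arrays than in all 4 WT arrays, and in Cdk4, Ccnd2 and Myc the KO 1 arrays stand above the rest.

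The kinase Cdk6 (gene at chr5:3341004-3531008, GRCm38.p6) had 10.30 in KO 1A, 10.36 in KO 1B, 9.07 in KO 2A and 8.97 in KO 2B. The WT arrays had 8.22, 8.25, 8.02 and 8.10 in the order 1A, 1B, 2A and 2B. The groups did not overlap, and the lowest KO array lay above the highest WT array in both preparations. The mean was 9.67 ± 0.76 (SD, n = 4) in KO and 8.15 ± 0.11 in WT, a difference of 1.53 log2 (SE 0.34, 95% interval 0.79 to 2.27) or 2.88-fold. With the preparation as a random block, limma gave an adjusted p = 0.181 (Benjamini-Hochberg over 19937 genes), which does not pass 0.05. With all arrays kept, this adjusted p ranged from 0.0049 to 0.540 over the other ways of processing, and it was 0.0387 after quantile normalization. Limma refits that left out a preparation had no random block, so arrays that share a preparation counted as replicates. Without preparation KO 2 the adjusted p was then 2.2e-06, and without preparation WT 2 it was 0.798. A larger difference was found for 76 genes (0.381%).

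The INK4 inhibitor Cdkn2c, whose protein binds the same kinases, had 8.35 in KO 1A, 8.52 in KO 1B, 7.12 in KO 2A and 7.16 in KO 2B. Its WT values were 6.07, 6.73, 6.57 and 6.20. Again no KO array reached down into the WT range. The means were 7.79 ± 0.75 (SD, n = 4) and 6.39 ± 0.31. The difference was 1.40 log2 (SE 0.39, 95% interval 0.56 to 2.23) or 2.63-fold, with an adjusted p = 0.384 by limma. With all arrays kept, this adjusted p ranged from 0.0167 to 0.636 over the other ways of processing. The limma refits with no random block gave 1.4e-05 without preparation KO 2 and 0.798 without preparation WT 2. The Cdkn2c difference was exceeded by 109 genes (0.547%).

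The counts over the members stand beside those over all genes. In this limma test of 4 KO and 4 WT arrays, 0 of the 8 members passed, and 0.135% of the 19937 genes did (27 genes). At an unadjusted p under 0.05, 2 members, Cdk6 and Cdkn2c, and 1235 genes passed. After quantile normalization, 1 of 8 members (Cdk6) and 0.787% of genes passed. All 4 KO arrays were above all 4 WT arrays for 2 of the 8 members, Cdk6 and Cdkn2c, and for 6.67% of all genes. Both KO 2 arrays were above all 4 WT arrays for the same 2 members and for 9.54% of all genes. The median difference of the members was 0.54 log2, against -0.06 over all genes, and 7 of 8 members were above 0, against 43.2% of all genes. After quantile normalization these medians were 0.32 and -0.01, and 5 of 8 members and 47.7% of all genes were above 0.

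The kinase Cdk4 had 11.37 and 11.30 in KO 1A and KO 1B, and 10.27 and 10.34 in KO 2A and KO 2B. WT 1A, 1B, 2A and 2B had 10.02, 10.54, 10.38 and 9.95. KO 1 was above every WT array, and KO 2 lay inside the WT range. The difference over all arrays was 0.60 log2 (SE 0.38, 95% interval -0.21 to 1.41), with limma's adjusted p = 0.701.

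Cyclin D2 (Ccnd2), which joins these kinases in activated lymphocytes, had 12.10, 12.06, 11.58 and 11.54 in the KO arrays, in the order 1A, 1B, 2A and 2B. The WT arrays had 11.15, 11.48, 11.55 and 11.15. KO 1 lay above every WT array, KO 2A was just above WT 2A and KO 2B just below it. The difference was 0.49 log2 (SE 0.33, 95% interval -0.21 to 1.19), with an adjusted p = 0.701. The probe set of cyclin D3 (Ccnd3) had 9.29, 8.80, 8.34 and 8.71 in KO and 8.65, 9.02, 8.88 and 8.49 in WT. Its groups overlapped, with a difference of 0.02 log2 (SE 0.33, 95% interval -0.70 to 0.75). For cyclin D1 (Ccnd1) the KO arrays had 6.34, 5.99, 6.71 and 6.75, and the WT arrays had 7.04, 6.49, 6.58 and 6.85. The KO 1 arrays were the lowest, and the difference of all 4 was -0.29 log2 (SE 0.29, 95% interval -0.92 to 0.33). Neither Ccnd1 nor Ccnd3 passed in limma, with adjusted p = 0.701 and 0.970.

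Cdkn1b encodes p27, which holds cyclin E and CDK2 inactive in resting cells. Its values were 9.75, 9.79, 9.49 and 9.51 in KO and 9.31, 10.09, 9.64 and 9.27 in WT. All KO values lay within the WT range, and the difference was 0.05 log2 (SE 0.34, 95% interval -0.69 to 0.80), with limma's adjusted p = 0.933. A second, dimmer probe set of the gene had means of 8.97 ± 0.18 (SD, n = 4) in KO and 9.06 ± 0.39 in WT, a difference of -0.08. The 2 sets followed each other over the arrays with Pearson's r = 0.817 (8 arrays of 1 table, a description).

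Myc had levels of 10.14 and 10.13 in the KO 1 arrays, against 9.04 in KO 2A and 8.84 in KO 2B. Its WT values were 8.28, 9.12, 9.02 and 8.76 in the order 1A, 1B, 2A and 2B. KO 1 was above all WT arrays and KO 2 was inside their range, which spanned 0.84 log2. The difference was 0.74 log2 (SE 0.42, 95% interval -0.16 to 1.64) or 1.67-fold, with an adjusted p = 0.701 by limma.

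The WT arrays themselves split for several members. WT 1A and WT 2B averaged below WT 1B and WT 2A for Myc (8.52 and 9.07), Cdkn2c (6.13 and 6.65) and Cdkn1b (9.29 and 9.86). For Ccnd1 the order was the other way (6.95 and 6.54), and for Cdk6 both averages were nearly equal (8.16 and 8.13). WT 1A was likewise nearer to WT 2B (r = 0.994 over all probe sets) than to its labelled partner WT 1B (r = 0.968).

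KO 1 and KO 2 were then set against all 4 WT arrays, and against each other, in a limma fit of 3 groups with no block. Each KO group holds arrays A and B of a single preparation, counted as replicates. The p-values of this fit therefore do not measure the spread between KO preparations. The comparisons of KO 1 and of KO 2 with WT share the WT arrays and are not independent. For KO 1 minus WT, 5 of 8 members were higher and 1 lower at an adjusted p under 0.05. Of all genes 70.5% were called, 31.5% higher and 39.0% lower. For KO 2 minus WT, 1 member, Cdk6, was higher, and 1.11% of all genes were called, 0.933% higher. KO 1 minus KO 2 had 5 members higher and 1 lower, and 63.1% of all genes called, 29.6% higher and 33.5% lower. In KO 1 the share of members called in either direction, 6 of 8, was thus close to that of all genes, and more of the calls were in the higher direction. After quantile normalization KO 1 had 5 of 8 members higher and 0 lower, with 40.0% of genes called and 24.5% called higher. KO 2 then had 1 member higher, with 1.86% of genes called and 1.38% called higher.

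Cdk6 was the member called in KO 2, by 0.87 log2 (SE 0.13, adjusted p = 0.00428) or 1.83-fold, and in KO 1 it rose by 2.18 (SE 0.13, adjusted p = 1.7e-07). The difference between the preparations, 1.31 log2, also passed, with an adjusted p = 1.4e-04. Without KO 2A the adjusted p of the KO 2 difference was 0.212, and without KO 2B it was 0.0987. After quantile normalization it was 0.84 log2 and still passed (adjusted p = 0.00387, range over the alternatives tried 1.3e-04 to 0.212). Of all genes, 0.482% had a larger difference in KO 2.

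Cdkn2c rose by 2.04 log2 in KO 1 (SE 0.17, adjusted p = 1.8e-06). In KO 2 its difference was 0.75 log2 (SE 0.17), with an adjusted p = 0.0594. Leaving out WT 1B brought that adjusted p to 6.1e-04, and a filter on mean log2 of at least 6 brought it to 0.0426, with a range over all alternatives up to 0.612. KO 1 was above KO 2 by 1.29 log2 (adjusted p = 6.2e-04).

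Myc rose in KO 1 by 1.34 log2 (SE 0.20, adjusted p = 1.8e-04), and in KO 2 its difference was 0.14 (SE 0.20). The preparations differed by 1.19 log2 (adjusted p = 0.00208). Cdk4 rose in KO 1 by 1.11 log2 (SE 0.19, adjusted p = 4.2e-04), against 0.08 in KO 2, and KO 1 was above KO 2 by 1.03 (adjusted p = 0.00302). Ccnd2 rose in KO 1 by 0.75 log2 (SE 0.20, adjusted p = 0.00581), a call lost without KO 1A (adjusted p = 0.0652). In KO 2 it differed by 0.23 log2, and between the preparations by 0.52 (adjusted p = 0.0646, or 0.0207 after quantile normalization, when the difference was 0.41). These 3 genes thus moved in KO 1, and after quantile normalization their KO 1 differences were smaller but still passed, at 0.83 for Myc, 0.73 for Cdk4 and 0.51 for Ccnd2.

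On every array the Ccnd1 signal was below that array's median over all probe sets (6.80 to 7.13), so background may limit it. This signal fell by 0.57 log2 in KO 1 (SE 0.16, adjusted p = 0.00723). Leaving out KO 1B ended the call (adjusted p = 0.116), as did quantile normalization (adjusted p = 0.152) and median centring of the arrays (adjusted p = 0.0526). The KO 1 minus KO 2 difference was -0.56 log2 (adjusted p = 0.0200), which did not pass without KO 1B, KO 2A or KO 2B (adjusted p = 0.165, 0.0681 and 0.0979), after quantile normalization (adjusted p = 0.352) or after median centring (adjusted p = 0.152). Ccnd3 differed in KO 1 by 0.29 log2 (SE 0.19) and Cdkn1b by 0.19 (SE 0.20), with adjusted p = 0.179 and 0.413. Both signs turned after quantile normalization, to -0.21 and -0.33, and both KO 1 differences passed when WT 1B was left out, with adjusted p = 0.0371 and 0.0239. In KO 2 the members other than Cdk6 and Cdkn2c had an adjusted p = 1.00. Between the preparations, Ccnd3 was 0.52 log2 higher in KO 1 (adjusted p = 0.0479), a call that was lost after quantile normalization (0.08 log2, adjusted p = 0.759), with 4 preparations as groups (0.0626), with no variance trend (0.0509) and without KO 1A, KO 2A, KO 2B or WT 2A, with adjusted p = 0.369, 0.293, 0.0661 and 0.0604.

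**Figure D2:**
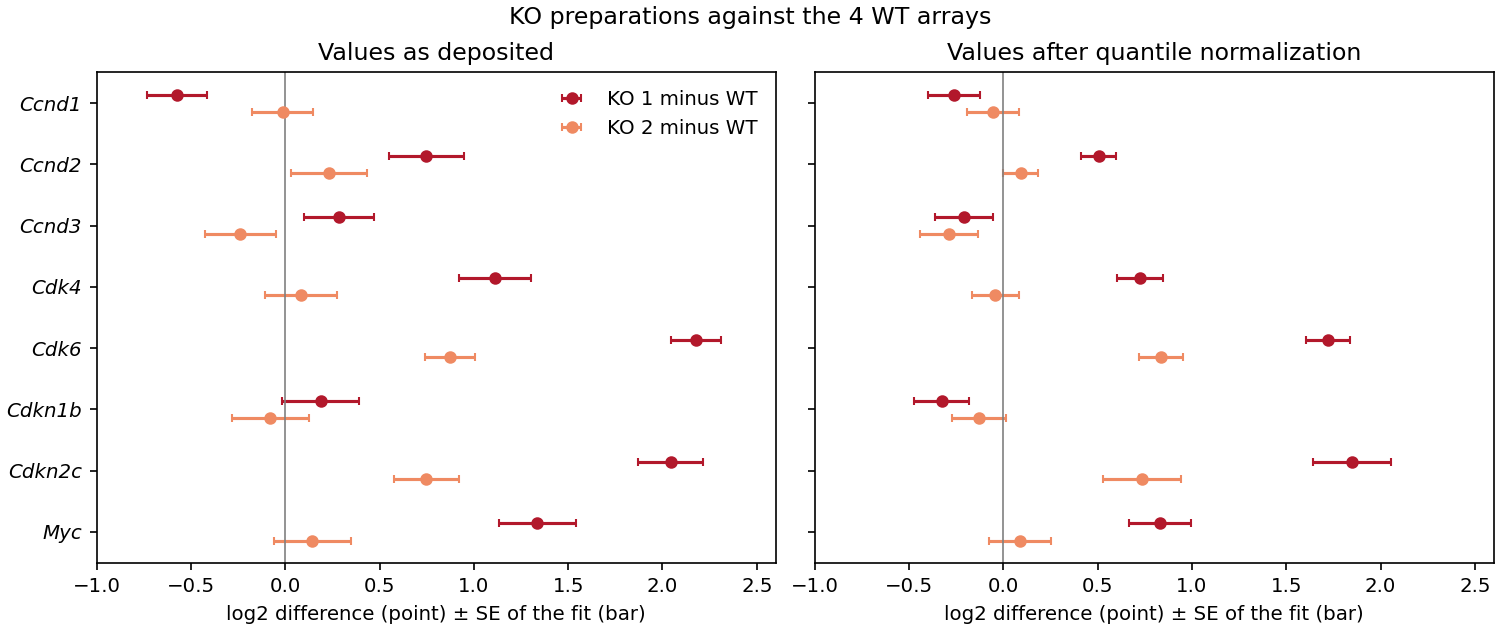
Log2 difference from the mean of the 4 WT arrays (x axis) of each measured member (y axis) for KO 1 and KO 2, with bars of 1 standard error from limma, as deposited (left) and after quantile normalization (right). Cdk6 and Cdkn2c lie to the right of 0 in both preparations in both panels, whereas Ccnd3 and Cdkn1b change side in KO 1.

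The arrays differed in more than these genes, and the part of each difference in the results was not tested. The SD of log2 over all probe sets was 1.87 and 1.84 in KO 1, 1.65 and 1.61 in KO 2, and 1.56 to 1.70 in WT. The mean of Y-linked Eif2s3y, Kdm5d and Uty was 4.62 to 4.80 in KO and 6.94 to 8.30 in WT. No KO array reached the WT range, so a difference in the sex of the mice cannot be told apart from genotype here. Bcl6 was higher in each KO array (lowest 8.51) than in each WT array (highest 8.36), with a difference of 0.59 log2 (SE 0.29, limma adjusted p = 0.701), and where its probes lie relative to the deletion is not known, so it does not check the genotype. T cell markers averaged 10.58 to 11.05 in KO and 10.21 to 10.86 in WT. Treg markers, all 6 measured, averaged 10.21 to 10.95 in KO and 9.39 to 10.18 in WT. For 4 of the 6 all KO arrays were above all WT arrays, against 6.67% of all genes. Markers of CD8 T cells (7.16 to 7.58 and 7.40 to 7.73), B cells (5.98 to 6.25 and 6.03 to 6.32), NK cells (4.94 to 5.25 and 5.12 to 5.31) and myeloid cells (6.13 to 6.37 and 6.09 to 6.39) overlapped between the genotypes, and 0 genes of these lists passed in the test of 4 KO and 4 WT arrays. For 1 of the 6 myeloid markers all KO arrays were above all WT arrays, against 6.67% of all genes. Of 4 erythroid markers 1 was measured, and it overlapped (6.37 to 6.74 in KO and 6.02 to 6.39 in WT). In KO 1 alone the CD8 T cell markers (7.16 to 7.38) and B cell markers (5.975 to 5.996) averaged below every WT array, in the preparation where most members were called. The median KO 1 differences were -0.25 for CD8, -0.44 for B cell, -0.23 for NK and -0.14 for myeloid markers. After quantile normalization they were -0.23, -0.13, -0.04 and 0.15 in the same order. The KO 1 comparison called 5 of 6 Treg and 2 of 4 T cell markers higher and 0 lower. Of all genes it called 31.5% higher and 39.0% lower. It called 1 of 2 CD8 markers lower, 1 of 5 B cell markers higher and 3 lower, and 2 of 3 NK markers lower. Of 6 myeloid markers it called 1 higher and 2 lower. The KO 2 comparison called 0 of all these markers, and 1.11% of all genes.

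The partners of these genes came from lists written with earlier results of these data known, so their medians are not independent evidence. The first holds 26 genes that work with the members in G1, such as cyclin E, E2F factors and pocket proteins, all of them measured. In KO minus WT, 0 passed after adjustment, 5 passed at an unadjusted p under 0.05, and 24 were above 0. Their median was 0.46 log2, against -0.06 for all genes, and it was 0.89 in KO 1 and 0.08 in KO 2. KO 1 had 20 of the 26 called higher and 0 lower, where 31.5% of all genes were called higher. After quantile normalization the medians were 0.36 over the 4 KO arrays and 0.60 in KO 1.

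Among those partners, the pocket protein Rbl2 had 10.01, 10.07, 9.68 and 9.79 in KO and 8.80, 9.30, 9.10 and 8.84 in WT. It was higher in every KO array, by 0.88 log2 (SE 0.29), with an adjusted p = 0.561 by limma, and by 0.72 in KO 2 (adjusted p = 0.0563). Cyclin E2 (Ccne2), which drives entry into S phase with CDK2, had 8.00 and 7.77 in KO 1 but 5.37 and 5.38 in KO 2, with 5.21 to 5.29 in WT. Its difference of 2.64 in KO 1 contrasted with 0.13 in KO 2. Cyclin E1 (Ccne1) and the repressor E2f8 differed by 1.30 and 1.19 in KO 1, and by 0.18 and 0.44 in KO 2.

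The E2F targets, which share cyclin E genes with the G1 partners, had 17 of 18 measured, all of them above 0 in KO minus WT, and 12 of them had all KO arrays above all WT arrays, against 6.67% of all genes. Their median difference was 0.95 log2, or 1.55 in KO 1 and 0.34 in KO 2, and after quantile normalization 0.72, 1.10 and 0.32. In each KO 2 array their mean was 8.53 to 8.59, between the WT range of 8.06 to 8.28 and the KO 1 range of 9.70 to 9.82. Again 0 passed after adjustment in KO minus WT, while 13 passed at an unadjusted p under 0.05. KO 1 had 16 of the 17 called higher, beside 31.5% of all genes. In KO 2, 2 of the 17 were called higher, beside 0.933% of all genes, the ribonucleotide reductase subunit Rrm2 and cyclin A2 (Ccna2). Rrm2 had 10.25, 10.06, 8.50 and 8.23 in KO and 7.37, 7.61, 7.69 and 7.49 in WT, with a KO 2 difference of 0.82 log2 (adjusted p = 0.0115). Ccna2, which activates CDK2 in S phase, had 9.81, 9.57, 8.34 and 8.20 in KO and 7.44, 7.75, 7.33 and 7.37 in WT, with a KO 2 difference of 0.80 (adjusted p = 0.0176). Both genes were higher in KO 1, by 2.61 and 2.21 log2.

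The 20 Myc targets, genes of growth and metabolism, were all above 0, with a median of 0.64 log2 against -0.06 for all genes, and of 1.04 in KO 1 and 0.16 in KO 2. Of these, 0 passed after adjustment, 5 passed at an unadjusted p under 0.05, and KO 1 had 19 called higher, where 31.5% of all genes were. After quantile normalization the medians were lower, at 0.36 over the 4 KO arrays, 0.64 in KO 1 and 0.13 in KO 2. In the WT arrays the Myc targets averaged 9.09 to 9.58 and the E2F targets 8.06 to 8.28. The median over all probe sets was 6.97 to 7.12 there, so all genes are not a set of like brightness. The part of brightness in these differences was not tested. The polyamine enzyme Odc1 differed by 1.04 in KO 1 and 0.80 in KO 2, the lactate dehydrogenase gene Ldha by 1.04 and 0.45, and the nucleoside diphosphate kinase Nme1 by 1.48 and 0.41. The 12 Myc partners and antagonists had a median of 0.07, or 0.02 after quantile normalization, and Max, the obligate partner of Myc, differed by 1.24 in KO 1 and 0.14 in KO 2. Mlx and Mxd1, a Max-like protein and a Myc antagonist, differed by 0.95 and 0.88 in KO 1. Over this list of 12 the KO 1 median was 0.28, or 0.13 after quantile normalization. KO 1 had 4 of the 12 called higher and 1 lower, beside 31.5% and 39.0% of all genes.

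Of the p53 regulators and targets 26 of 27 were measured, and Bax was not analysed here. Their median difference was 0.20 log2, 0.36 in KO 1 and 0.06 in KO 2, and after quantile normalization it was 0.12, with 0.20 in KO 1. KO 1 had 13 called higher and 4 lower, where 31.5% of all genes were higher and 39.0% lower. In KO minus WT, 19 of the 26 were above 0. All KO arrays were above all WT arrays for 5 genes, against 6.67% of all genes, and below them for 1. The genes named next had the smallest unadjusted p and were all higher. Plk3, a kinase of the stress response, had 9.66, 9.64, 8.14 and 8.29 in KO and 7.54, 7.79, 7.68 and 7.51 in WT. Its difference was 1.30 log2 (SE 0.36, limma adjusted p = 0.384) and in KO 2 it was 0.59 (adjusted p = 0.0537). The apoptosis genes Pmaip1 (Noxa) and Apaf1 differed by 1.13 and 1.14 in KO 1, and by 0.40 and 0.28 in KO 2. Of the 8 measured genes upstream of p27 and cyclin D, of 9 listed, 5 were above 0, with a median of 0.03 log2 that turned to -0.24 after quantile normalization (in KO 1 from 0.16 to -0.27). The TSC genes Tsc1 and Tsc2 and the quiescence factor Klf2 differed by -0.10, 0.20 and -0.14 log2 over the 4 KO arrays.

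**Figure D3:**
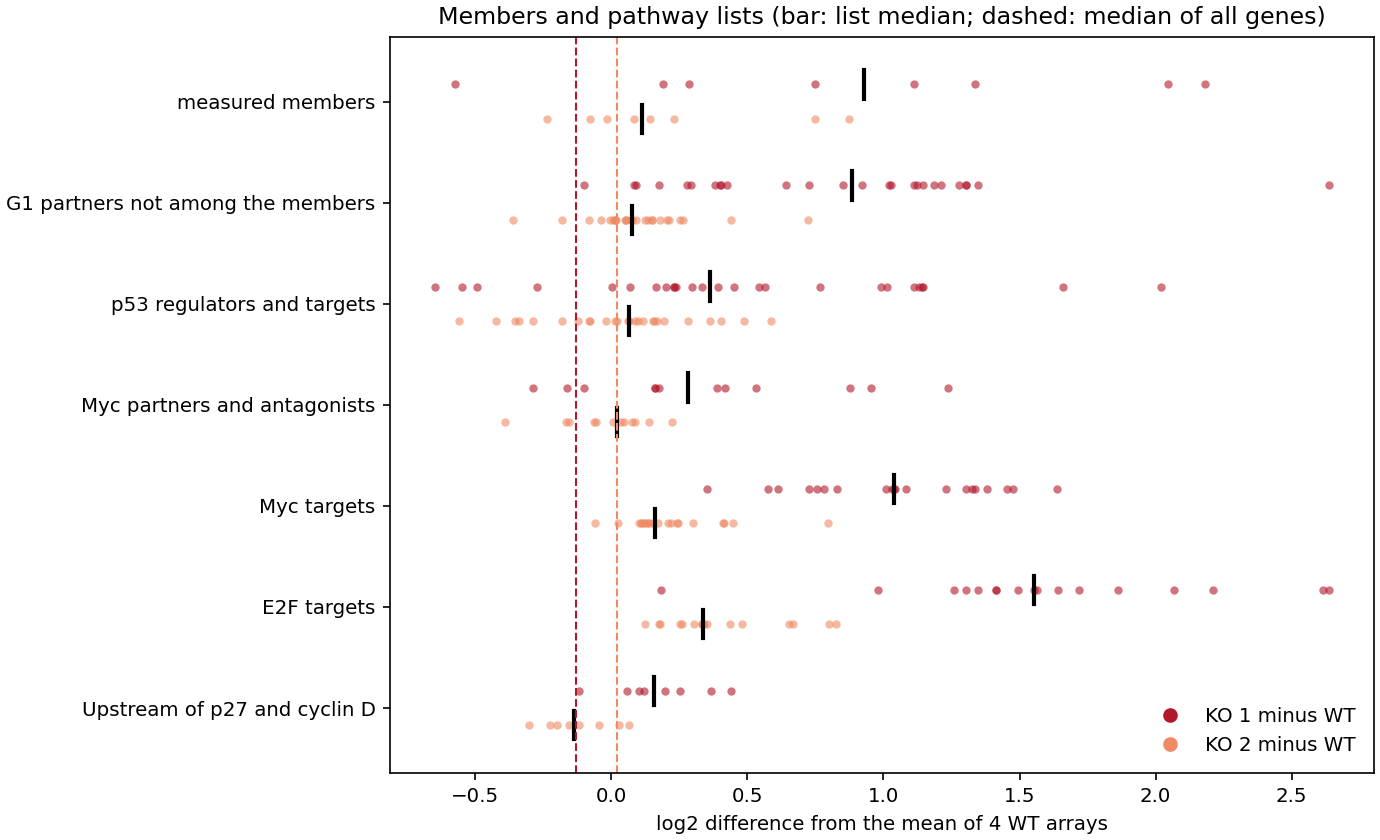
Log2 difference from the mean of the WT arrays (x axis) of each measured member and each measured gene of the pathway lists, for KO 1 and KO 2, with a black bar at the list median and a dashed line, in the colour of the preparation, at the median of all genes. The E2F and Myc target lists have the highest KO 1 medians, 1.55 and 1.04, and their KO 2 medians are 0.34 and 0.16.

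**Figure D4:**
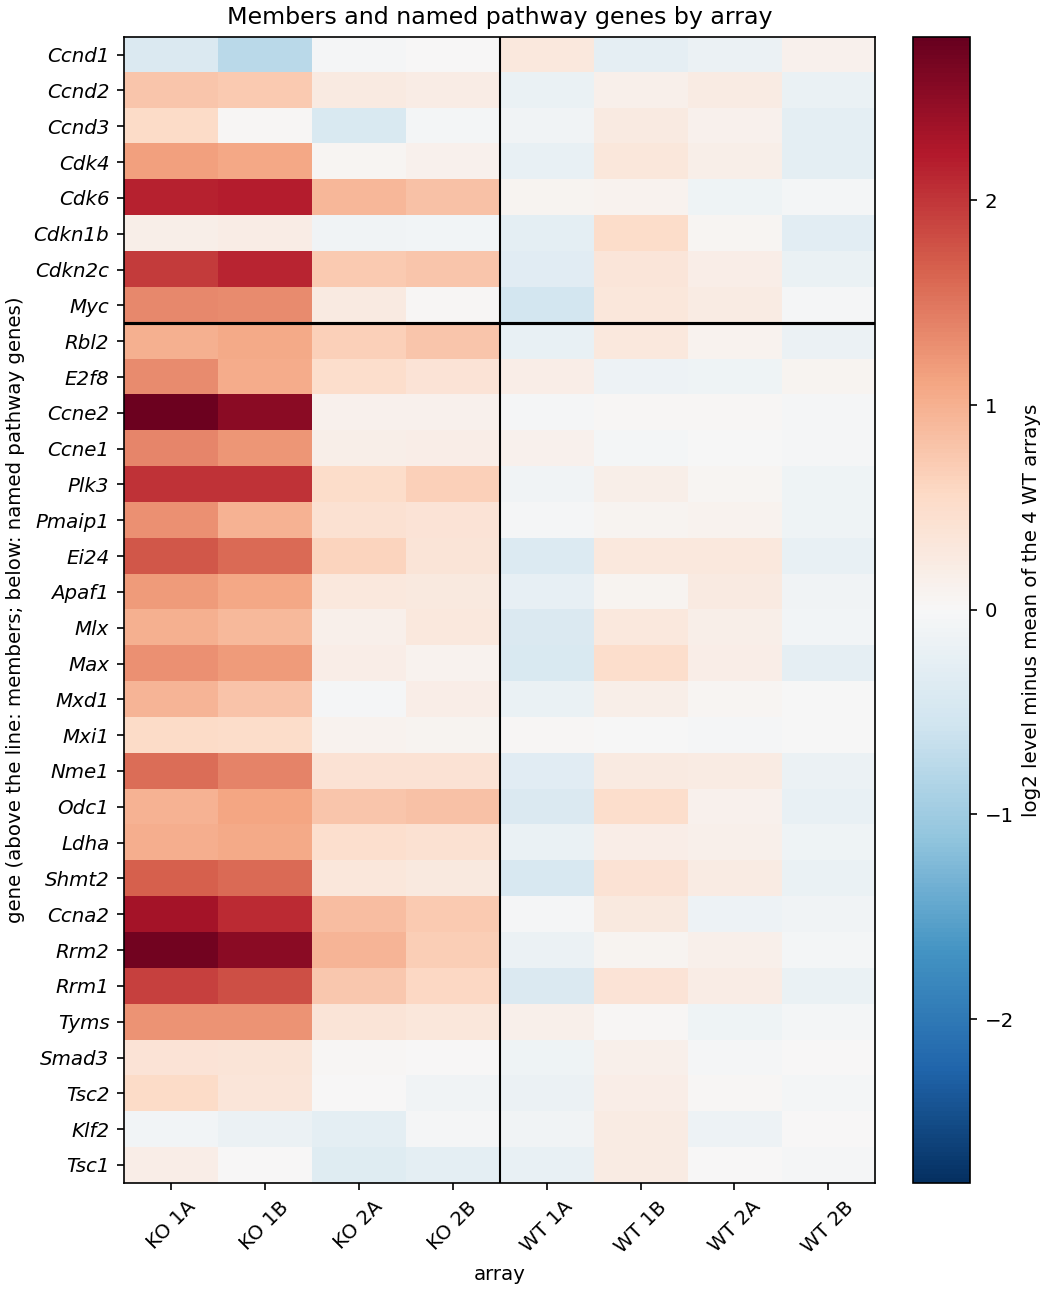
Log2 expression minus the mean of the 4 WT arrays (colour) in the 8 arrays (columns) for the 8 measured members (above the line) and 24 named genes of the pathway lists (below it). The KO 1 columns carry the largest positive values, and the KO 2 columns are nearer to the WT columns. Cdk6, Cdkn2c and most of the named pathway genes, among them Rrm2, Ccna2, Odc1 and Rbl2, are still above WT in KO 2, and Tsc1 is below.

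The genes whose pattern over the 8 arrays was most like a member's were ranked by Pearson's r, as a description over arrays that share 1 table. Cdk6 was followed most closely by Slc39a4 (r = 0.997), Chsy1 (0.997) and Map2k3 (0.996), and 721 genes had r over 0.95 with it. For Cdkn2c they were Vmp1, Ripk3 and Ctsa, with r of 0.997, 0.997 and 0.996, and 1566 genes over 0.95. Cdk4 had Vbp1 (0.999), Plaa (0.999) and Edc3 (0.997), with 3058 genes over 0.95, and Myc had Ccdc127 (0.999), Zmynd11 (0.998) and Nop14 (0.998), with 2310. Numbers of this size show that these patterns are common on these arrays. Ccnd2 had Cdc123 (0.998), Ndufa4 (0.995) and Slc25a5 (0.995) and 1561 genes, and Ccnd1 had Opalin (0.995), Hyal5 (0.993) and B3gnt6 (0.988) and 320. Ccnd3 and Cdkn1b had rarer patterns, with 1 and 18 genes over 0.95. Their leading genes were Hdac5 (0.985), Gypc (0.948) and Tada2b (0.946) for Ccnd3, and Sh3kbp1 (0.980), Snord38a (0.978) and Zmym5 (0.975) for Cdkn1b. After quantile normalization the r of Snord38a with Cdkn1b was 0.238, and that of Zmynd11 with Myc was 0.210.

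Between the members, Cdk6 and Cdkn2c had r = 0.970 over the 8 arrays, or 0.918 after quantile normalization. Cdk4 and Myc had r = 0.965, or 0.896. Ccnd1 ran opposite to Myc, with r = -0.934 as deposited.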

How the data were processed

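Expression was measured on 8 Affymetrix arrays, 4 KO and 4 WT. The deposited values are log2 expression of each probe set, for which the submitters' processing notes name RMA and Partek. Their versions, the build and any filter were not stated in the labels. RMA usually equalises arrays, yet their SDs differed, which can widen or narrow differences for many genes at once.

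The names of probe sets come from GEO's annotation of the platform, which may be dated: of 28768, 21771 had 1 symbol, 1557 several and 5440 none. Of the 19937 genes, 999 had several sets, and the set with the highest mean was used, with no filter on dim sets. In R 4.3.3, limma 3.58.1 (lmFit, eBayes with a variance trend) compared 4 KO with 4 WT arrays, with preparation as a random block (correlation 0.617, 12.8 degrees of freedom), and in a second fit KO 1, KO 2 and pooled WT as 3 groups with no block. Calls use Benjamini-Hochberg adjusted p under 0.05, two-sided. Over all genes the difference had a median of -0.06, which quantile normalization moved to -0.01 and median centring to 0.04. The number of arrays limits the precision. The test was tested on simulated data, which had the same spread on every array, unlike these arrays.

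The members and the gene lists were chosen with earlier results of these data known. The text names the members, Bcl6, up to 4 genes of each pathway list with the smallest unadjusted p, and the 3 genes most correlated with each member, passing over predicted genes, olfactory receptors and the segments of antigen receptors. Alternatives were other treatments of preparations and letters, array weights, a fit with no variance trend, median centring, quantile normalization, a minimum mean of log2 6, other probe set choices and leaving out arrays or preparations. Quantile normalization over the 19937 genes alone was chosen after seeing the data.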

Additional observations from a re-analysis of the deposited data

How the results depend on the processing

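Over 8 members, 185 alternative values of KO minus WT were computed. Of these, 157 kept direction and side of the threshold, 11 became called and 17 changed sign. With 0 members called as reported, no call could be lost. Calls over all genes (27 as reported) were 113 without the random block, 677 with the preparation number as a replicate block, 16 with the letter as a term, 52 on preparation means, 66 with array weights (whose fit reported incomplete convergence), 157 after quantile normalization, 379 with it over genes only, 14 after median centring, 144, 13378, 12 and 6 without preparation KO 1, KO 2, WT 1 and WT 2, and 15 to 57 without each array (16, 55, 57, 15 and 16 without KO 1B, KO 2B, WT 1B, WT 2A and WT 2B). The fits without a preparation had no random block, so arrays that share a preparation counted as replicates there. The labels do not say whether KO and WT preparations of the same number belong together, as a block on the preparation number assumes. The paired deviations correlated at 0.416 by preparation number, over 2 pairs, and from -0.691 to 0.771 by array number, which does not settle it. Members called (0 as reported) were 2 with that block (Cdk6 and Cdkn2c), 1 after quantile normalization of all probe sets or of genes only, 1 without KO 1 and 6 without KO 2, and 0 without each array. KO 1 minus WT had 7973 calls after quantile normalization (7768 to 15968 without each array, the lowest without KO 1A), KO 2 minus WT had 371 and, after median centring, 130 (43 to 663, with 144, 144, 43, 59, 663 and 135 without KO 1A, KO 1B, KO 2A, KO 2B, WT 1B and WT 2A), and KO 1 minus KO 2 had 4853 (4672 to 14684, with 4672 and 5296 without KO 1A and KO 2B). The cause of these shifts was not tested.

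Signs turned for Ccnd3, in KO minus WT to -0.044 with array weights, -0.25 after quantile normalization, -0.35 with it over genes only, -0.24 without KO 1 and -0.051 without WT 2 (-0.12 to 0.14 without each array), and in KO 1 minus WT to -0.21 after quantile normalization. Cdkn1b turned in KO minus WT to -0.23 and -0.39 with these normalizations, -0.015 for the mean of its probe sets, -0.085 for the second, -0.079 without KO 1 and -0.066 without WT 2 (-0.12 to 0.24), in KO 1 minus WT to -0.33, and in KO 1 minus KO 2 to -0.20. In KO 2 minus WT, Cdk4 turned to -0.042 after quantile normalization (-0.0064 to 0.19 without each array), and leaving out arrays gave -0.099 to 0.086 for Ccnd1, -0.18 to 0.090 for Cdkn1b and -0.027 to 0.25 for Myc. Where leaving out an array left 1 in a group, that array was assumed to vary like the others. A dim probe set is limited by its background, which the files do not give.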
